A study of Danio rerio with 6 samples.

Results

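Endothelial cells of hhex mutant zebrafish were compared here with those of their siblings at 48 hours post fertilization (hpf), in 2 libraries per group. Of 31701 genes in the expression table, the 11775 (37.1%) with a mean value of at least 50 over these 4 libraries were compared, and 11290 of them were protein coding. The lowest mean kept was 50, and the highest mean left out was 49.8. The groups were set side by side as a whole and also by replicate number, mutant 1 with sibling 1 and mutant 2 with sibling 2.

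Both groups carried Tg(kdrl:EGFP)s843, in which the promoter of the endothelial receptor gene kdrl drives EGFP, on the AB strain, and EGFP-positive cells were sorted from dissociated embryos. The hhex mutants were the embryos that lacked parachordal lymphangioblasts, the precursors of the trunk lymphatic vessels, and the siblings were the embryos that had them. A sibling can therefore carry the mutation on 1 chromosome. The sample titles call this group sibling, although the column names call it WT. The study made 2 alleles with nucleases directed at the homeodomain, s721 with a premature stop and s722 with an in-frame deletion, and by its methods the experiments used s722. Another group of the series, in which the fli1a promoter drives tdTomato-2A-hhex and EGFP and tdTomato double-positive cells were sorted, is used only for values set side by side.

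Hhex is a homeodomain transcription factor of endothelial and blood progenitors and of liver and pancreas. In zebrafish, lymphatic cells arise from the cardinal vein, where Vegfc, after its processing by Ccbe1 and Adamts proteases, acts on the receptor Flt4 and its co-receptor Nrp2, and the transcription factor Prox1 marks cells that take the lymphatic fate. In bulk RNA of sorted cells, fewer cells of a type and less RNA per cell cannot be told apart, and here the groups were themselves formed by the presence of lymphatic precursors.

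The 4 libraries held between 19133058 and 23381023 normalized units on genes, of which 32.4% to 36.0% lay on ribosomal RNA genes. The mutant libraries stood apart from each other. A list of 10 pan-endothelial genes, among them the transcription factor genes fli1a and erg, the receptor gene tie1 and the junction gene cldn5b, summed to 11604 and 32249 in mutants 1 and 2, against 15688 and 26127 in siblings 1 and 2. For all 10 genes mutant 1 lay below sibling 1 and mutant 2 above sibling 2. The sorting reporter's own gene, kdrl, had 7336 and 21007 in mutants and 9372 and 17884 in siblings. Over all genes the median absolute log2 difference was 0.43 between the 2 mutant libraries and 0.28 between the 2 sibling libraries. Across genes, the deviations of the libraries with the same number correlated at 0.50, a description over 11775 genes that are not independent. The labels do not say that a number marks a shared clutch, sort or run, so pairing by number is the rule of this comparison and not a known feature of the experiment.

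With the 4 libraries taken as 2 against 2, limma on log2(value + 1) called 0 of 11775 genes (0%) at a Benjamini-Hochberg adjusted p under 0.05. At an unadjusted p under 0.05 there were 77 genes higher in mutants (0.654%) and 135 lower (1.15%). Within replicate numbers, 2970 genes (25.2%) were higher in both mutant libraries than in their same-numbered sibling, 2721 (23.1%) were lower in both, and the remaining 6084 had opposite directions or no difference. Across genes the log2 ratios of the 2 replicate numbers correlated at only 0.099. A difference of at least 1 on the log2 scale in both was present in 27 genes higher in mutants (0.229%) and 96 lower (0.815%). After rescaling the libraries to the endothelial markers, the same counts were 2257 higher and 1307 lower in both, and 43 higher and 67 lower by at least 1.

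With the replicate number as a block in the limma fit, 71 genes passed an adjusted p of 0.05, 20 of them higher in mutants (0.17%) and 51 lower (0.433%). The number of calls changed with the filter, the scaling, the prior and the libraries fitted. They numbered 203 with a filter at a mean of 5, 5 after rescaling to the endothelial markers, 1 with a single prior for all genes and 0 in a fit of all 6 libraries, in which each of the 71 had an adjusted p of 1. Of the 71 themselves, 2 were still called after the rescaling. The direction of all 71 was the same in every one of these fits and with any 1 of the 4 libraries left out. This adds no support to the calls. A changed filter or prior, or the added libraries, leaves the log2 change of a gene as it was. In every called gene except il7r the groups did not overlap, so leaving out 1 library could not turn the direction. Below, "called" means past this block fit, and values of each library come first.

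**Figure D1:**
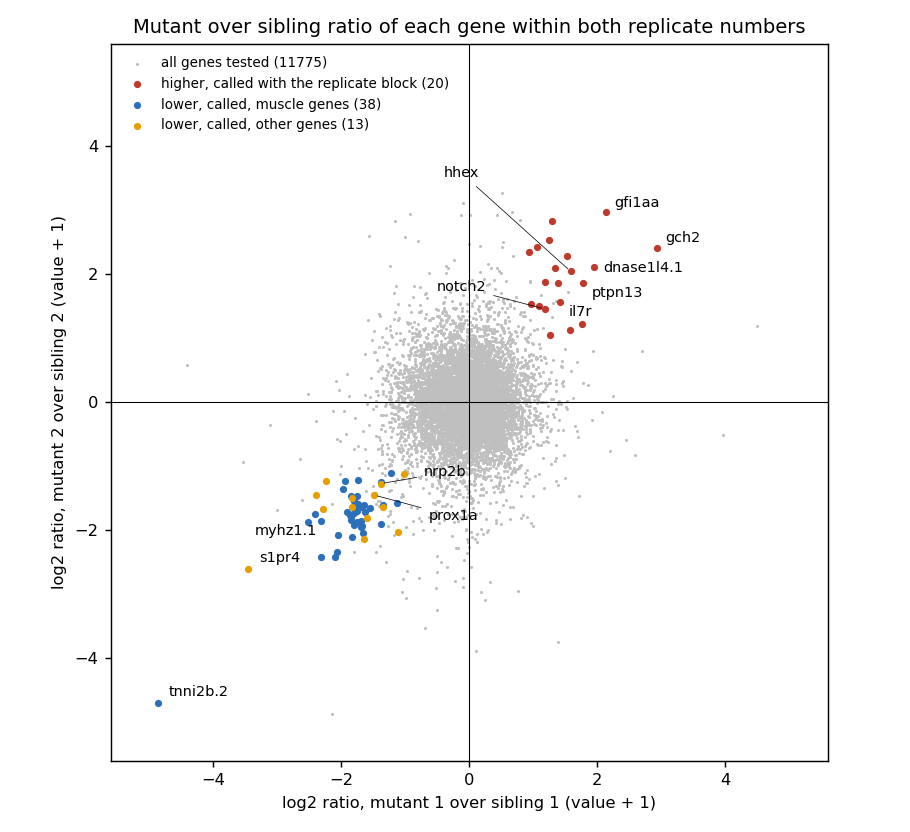
Each point is a gene, placed by its log2 ratio (value + 1) of mutant 1 over sibling 1 on the horizontal axis and of mutant 2 over sibling 2 on the vertical axis. Grey points are all 11775 genes, coloured points the 71 called with the replicate block, which lie in the corners where both ratios have the same sign, with 38 muscle genes in the lower left.

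hhex itself (ENSDARG00000098231, chromosome 12, 47695602 to 47699931 in GRCz10, minus strand) had 613 and 1157 in mutants, against 204 and 279 in siblings. Both mutant libraries lay above both sibling libraries. The log2 change was 1.82 (standard error 0.24, adjusted p = 0.00148 from limma with the block), and between 1.36 and 2.27 with any 1 library left out. The s722 allele is a small in-frame deletion and does not remove the gene, so its read level does not check the genotype labels. The overexpression libraries, in which the transgene adds hhex transcript, had 764 and 925.

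Among the genes of receptors at the cell surface, notch2 (chromosome 8, 19516900 to 19587707), one of the Notch receptors, had 1705 and 1921 in mutants, against 749 and 699 in siblings. The groups did not overlap, and the libraries of each lay close together. Its log2 change was 1.32 (standard error 0.21, adjusted p = 0.00939 from limma with the block) and stayed between 1.24 and 1.41 with any 1 library left out. notch3, the Notch receptor of arterial and mural cells, was not called and had 983 and 819 in mutants, against 536 and 465 in siblings, also without overlap. Of the 23 Notch pathway genes tested (ligands, receptors, fringe enzymes and targets), 5 were higher in both replicate numbers and 3 lower in both. These shares of 21.7% and 13.0% were below those of all genes, 25.2% and 23.1%. The other Notch genes higher in both included the ligand jag1a with 91 and 130 in mutants and 62 and 83 in siblings. The target hey2 had 195 and 394 in mutants and 146 and 272 in siblings, and its log2 change of 0.47 was -0.03 without mutant 2. Genes of a list were named by the size of the smaller ratio, which left out the 3 lower ones. The median change of the Notch list was 0.02, against 0.003 over all genes, and it was 0.51 without mutant 1, -0.23 without mutant 2 and -0.003 with quantile scaling.

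ptpn13 (chromosome 21, 9294531 to 9469539), a cytoplasmic tyrosine phosphatase, had the tightest separation of the called genes that were higher. It had 582 and 634 in mutants, against 169 and 173 in siblings, a log2 change of 1.82 (standard error 0.23, adjusted p = 0.00141 from limma with the block). neo1a (chromosome 7, 53485049 to 53819675), the netrin and repulsive guidance molecule receptor neogenin, had 648 and 1187 in mutants, against 223 and 243 in siblings.

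The endocytic receptor genes lrp1aa and lrp1ab, 2 copies of the low density lipoprotein receptor-related protein 1, were both higher in mutants. lrp1aa had 730 and 1528 in mutants, against 307 and 262 in siblings. lrp1ab had 1096 and 2050 in mutants, against 482 and 554 in siblings, and it overlaps other annotated genes on both strands. The receptor gene fgfr1a of the fibroblast growth factors had 243 and 474 in mutants, against 92 and 130 in siblings. For these 3 genes mutant 2 was about 2 times mutant 1, in the order of the endothelial markers, yet mutant 1 still lay above both siblings.

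adgrg6, an adhesion G protein-coupled receptor, had 281 and 1103 in mutants, against 110 and 256 in siblings. The collagen gene col14a1a had 193 and 651 in mutants, against 92 and 120 in siblings. In both genes the size of the difference rested on mutant 2, and without it the log2 change was 0.74 for adgrg6 and 0.87 for col14a1a, in place of 1.72 and 1.75. Without sibling 1 that of adgrg6 was 1.12. The ciliary gene dzip1 had 134 and 276 in mutants, against 54 and 38 in siblings.

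A second set of genes higher in mutants was more abundant in mutant 1, the library with the fewest endothelial transcripts. dnase1l4.1 (chromosome 22, 5637518 to 5652648), of the DNase I family, had 1695 and 753 in mutants, against 436 and 173 in siblings, a log2 change of 2.04 (standard error 0.22, adjusted p = 0.000543 from limma with the block). gfi1aa (chromosome 2, 10983145 to 11002050), a transcriptional repressor of blood formation, had 266 and 117 in mutants, against 60 and 14 in siblings. Its change of 2.55 on the log2 scale was 1.54 without sibling 2, where it was lowest. The cytokine receptor gene il7r had 598 and 124 in mutants, against 224 and 41 in siblings, so that the groups overlapped and only the ratio within each number separated them (1.41 and 1.57 on the log2 scale). Its change of 1.49 was 0.36 without mutant 1 and 0.28 without sibling 2.

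gch2, a GTP cyclohydrolase that makes pteridine pigment precursors, had 113 and 138 in mutants, against 14 and 25 in siblings. Its log2 change was the largest among the called genes that were higher, 2.67 (standard error 0.49, adjusted p = 0.0228 from limma with the block). The other 2 tested genes of the pigment and neural crest list moved otherwise. The melanosome gene pmela had 55 and 41 in mutants and 27 and 115 in siblings, and tfap2a had 72 and 32 in mutants and 93 and 60 in siblings. In the overexpression libraries gch2 had 19 and 115, as wide a range as between mutants and siblings.

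The other called genes that were higher are named here after their values were seen. They were the interleukin 6 receptor gene il6r (2339 and 1298 in mutants, 978 and 622 in siblings), the sorting receptor gene sorl1 (483 and 420 in mutants, 162 and 192 in siblings) and the bicarbonate cotransporter gene slc4a4b (453 and 443 in mutants, 213 and 156 in siblings). The connexin gene cx43.4 had 360 and 213 in mutants and 106 and 91 in siblings, and the unnamed gene si:ch1073-429i10.1 had 522 and 678 in mutants and 267 and 234 in siblings. The fatty acid-binding protein gene fabp11a had 1361 and 6166 in mutants and 711 and 1203 in siblings, and its log2 change of 1.65 was 0.56 without mutant 2. The change of il6r was 0.73 without mutant 1 in place of 1.16.

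Of the 12 genes higher in both numbers with the largest smaller ratio, counted among genes whose symbol is not a clone name, 9 were called and 3 were not. map4k6, a kinase gene, had 147 and 86 in mutants, against 57 and 28 in siblings. gbp1, of the interferon-induced guanylate-binding proteins, had 115 and 163 in mutants, against 46 and 55 in siblings. The kinase gene rps6ka5 had 247 and 175 in mutants, against 100 and 69 in siblings. None of the 3 overlapped between groups, and their adjusted p was between 0.122 and 0.262 from limma with the block. They were picked by their ratios, which makes overlap unlikely. Of the 27 genes higher by at least 1 in both numbers, 25 did not overlap, and 13.6% of all genes had both mutants above both siblings.

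**Figure D2:**
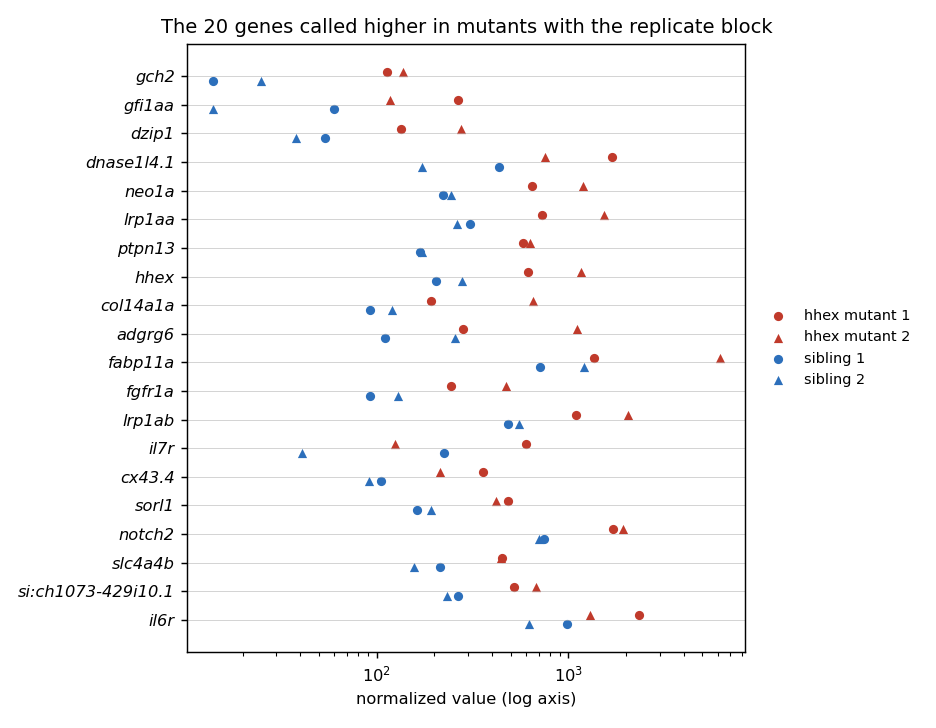
Normalized value (horizontal log axis) of the 20 genes called higher with the replicate block, ordered by log2 change, with red symbols for hhex mutants and blue for siblings, circles for library 1 and triangles for library 2. Red lies right of blue in every row except il7r, where mutant 2 (124) is left of sibling 1 (224).

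The lower genes were led by skeletal muscle. Of the 51 called lower, 38 encode proteins of the muscle fibre, among them myosins, actins, troponins, tropomyosin, titin, nebulin, parvalbumins, creatine kinases and the calcium release apparatus, a grouping made after the calls were seen. Their log2 changes were between -4.79 and -1.16 with a median of -1.77, and their adjusted p between 0.000109 and 0.0294 from limma with the block. Of the 96 genes lower by at least 1 in both replicate numbers, 51 were of this kind. With the libraries rescaled to the endothelial markers, 1 of the 38 called muscle genes, tnni2b.2, was still called.

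The fast myosin heavy chain gene myhz1.1 (chromosome 5, 31698473 to 31708976) had 8286 and 5198 in mutants, against 34428 and 21763 in siblings. Its change was -2.06 on the log2 scale (standard error 0.17, adjusted p = 0.000109 from limma with the block). The fast skeletal troponin I gene tnni2b.2 had 3 and 4 in mutants, against 116 and 129 in siblings, a change of -4.79 that rests on values near 0 in the mutants and is the only call kept with a single prior for all genes. The light chain gene mylpfb had 135 and 61 in mutants, against 674 and 331 in siblings. In all 3 genes every mutant library lay below every sibling library.

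The same gap ran through the other muscle proteins. The myosin heavy chain genes myhz1.2, myhz1.3 and myha had 5881 and 3385, 4497 and 2634, and 2384 and 1343 in mutants. Siblings had 25135 and 18066, 15693 and 9923, and 8519 and 5779, in the same order. The troponin T gene tnnt3a had 243 and 146 in mutants, against 1018 and 744 in siblings. Its paralog tnnt3b had 807 and 579 in mutants, against 2912 and 2080 in siblings. The tropomyosin gene tpma had 1093 and 718 in mutants, against 3927 and 2500 in siblings. The parvalbumin gene pvalb2, a calcium buffer of fast fibres, had 360 and 304 in mutants, against 1788 and 1101 in siblings. The Z-disc gene myoz1b had 30 and 34 in mutants, against 177 and 127 in siblings, and triadin (trdn), part of the calcium release complex, had 34 and 35 in mutants, against 186 and 120 in siblings. The titin genes ttn.1 and ttn.2 were the least even, since sibling 1 alone had 11562 and 11427 and sibling 2 had 3843 and 4416, with 3468 and 3550 in mutant 1 and 1651 and 1420 in mutant 2. Without sibling 1 the log2 change of ttn.1 was -0.68 in place of -1.48 and that of ttn.2 was -0.98 in place of -1.66, and without mutant 2 that of ttn.1 was -0.94.

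The muscle genes myhz1.1, myhz1.2 and myhz1.3 and other myosin and actin genes have near-identical copies, and several overlap another gene on the same strand. By the study's methods, reads that aligned to several regions or overlapped several genes were left out, so these genes can lack reads. In a list of 21 muscle markers, 18 of the 19 tested were lower in both replicate numbers and had both mutants below both siblings (background 11.2%), and 17 were called. The sum of the list was 33375 and 18689 in mutants, against 112627 and 66914 in siblings. Its median change was -1.72, between -2.12 and -1.42 with any 1 library left out and -1.65 after rescaling to the endothelial markers. The exception was the slow myosin gene smyhc1, with 716 and 18 in mutants and 45 and 26 in siblings. The muscle transcription factor genes stayed under the filter, with myod1 at 6 and 1 in mutants against 16 and 26 in siblings, and myog at 0 in both mutants against 2 in each sibling. The overexpression libraries had sums of 19694 and 50062, both below both siblings, so lower muscle sums were not particular to the mutants. Muscle transcripts also differed by more than 2 times within the overexpression group. The kdrl reporter marks endothelium and not muscle, and the part of muscle RNA in any other difference was not tested.

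Neural and epidermis markers were also more often lower in both replicate numbers than all genes, though less evenly than muscle. Of 9 neural markers tested, 6 were lower in both (66.7%, against 23.1% of all genes) and 1 higher, with a median change of -0.71. The neuronal gene elavl4 had 173 and 81 in mutants, against 251 and 175 in siblings, and stmn1b had 182 and 52 in mutants, against 290 and 120 in siblings. The glial gene gfap went the other way, with 191 and 36 in mutants, against 70 and 24 in siblings. The median was 0.00074 without mutant 2, which had the lowest neural sum (954, against 2265 in mutant 1 and 2401 and 1451 in siblings).

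Of 10 epidermis markers, 5 were lower in both, 0 were higher in both and 0 were called. The keratin gene krt4 had 1909 and 365 in mutants, against 2739 and 1182 in siblings, and the median of the list, -0.40, was 0.31 without mutant 2 and 0.26 without sibling 1. The cartilage and notochord collagen gene col2a1a had 576 and 254 in mutants, against 736 and 1513 in siblings. Markers of heart muscle, liver, pancreas and gut mostly lay under the filter, with 2 of 7 and 3 of 23 genes tested, and 0 of 11 lens and retina markers were tested.

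**Figure D3:**
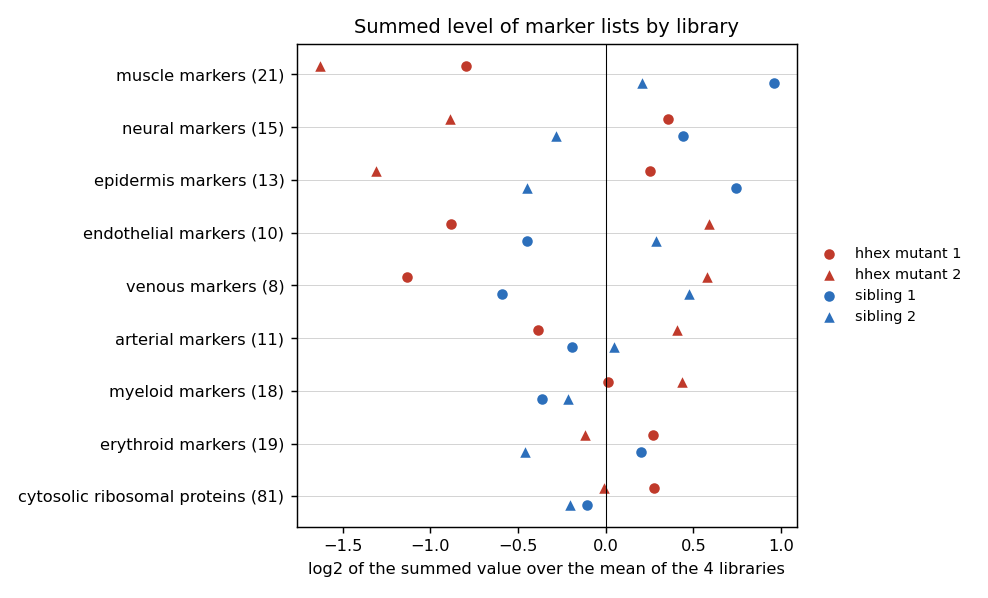
Summed value of each marker list in each library, as log2 over the mean of the 4 libraries (horizontal axis), with red for hhex mutants, blue for siblings, circles for library 1 and triangles for library 2, and the number of genes summed in brackets. Muscle sums of both mutants lie below both siblings, while endothelial and venous sums order by library number, with mutant 1 lowest and mutant 2 highest.

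Of the genes of the lymphatic pathway, prox1a (chromosome 17, 32870009 to 32913277) had 156 and 322 in mutants, against 439 and 880 in siblings. Every mutant library lay below every sibling library, and the ratio was nearly the same in both replicate numbers, -1.49 and -1.45 on the log2 scale. The change was -1.47 (standard error 0.23, adjusted p = 0.00736 from limma with the block), -0.95 without mutant 1, -0.97 without sibling 2, -1.99 without mutant 2 and -1.97 without sibling 1. Its paralog prox1b had 101 and 295 in mutants, against 185 and 363 in siblings, lower in both numbers but not called.

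The Flt4 co-receptor gene nrp2b (chromosome 9, 14396367 to 14533631) had 299 and 781 in mutants, against 783 and 1885 in siblings. Mutant 2 came to the level of sibling 1, and within the numbers the ratios were -1.39 and -1.27 on the log2 scale. Its change was -1.33 (standard error 0.22, adjusted p = 0.00939 from limma with the block), with -0.64 without mutant 1, -0.69 without sibling 2, -2.02 without mutant 2 and -1.96 without sibling 1. The paralog nrp2a had 150 and 272 in mutants, against 222 and 545 in siblings, and was not called. The receptor gene flt4 (chromosome 14, 15511491 to 15651094) had 302 and 1312 in mutants, against 1052 and 2166 in siblings. Its log2 ratios were -1.80 and -0.72, and the adjusted p was 0.072 from limma with the block. The groups overlapped. The change of flt4 was -1.26, with -0.20 without mutant 1, -0.74 without sibling 2, -2.32 without mutant 2 and -1.78 without sibling 1.

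Upstream of the receptor the values were smaller and less even. The ligand gene vegfc (chromosome 1, 38132757 to 38190124) had 108 and 209 in mutants, against 80 and 171 in siblings. It was higher in each number but by less than the difference between libraries of 1 group, and its change of 0.36 on the log2 scale was -0.19 without sibling 1. The protease gene adamts3 had 76 and 519 in mutants, against 75 and 67 in siblings, a difference carried by mutant 2 alone. Vegfd (listed as figf), ccbe1, adamts14 and svep1 lay under the filter, with at most 20 in mutant 1 and 47 in mutant 2, against at most 43 in sibling 1 and 59 in sibling 2.

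Of the 7 genes of the Vegfc/Flt4/Prox1 axis tested, 5 were lower in both replicate numbers and 2 higher in both, against 23.1% and 25.2% of all genes. Of the 7, 2 were called lower, against 0.433% of all genes. The groups were formed by the presence of lymphatic precursors, and the list was chosen with earlier results known. These shares are therefore a description only. The median change of all 7 was -0.78. It moved between -1.43 and -0.14 with any 1 library left out. The other transcription factor genes of the lymphatic specification list had smaller changes. sox18 had 563 and 1184 in mutants, against 624 and 1332 in siblings. sox7 had 674 and 1826 in mutants, against 830 and 1566 in siblings, nr2f2 had 249 and 708 in mutants, against 361 and 577 in siblings, and mafba had 195 and 458 in mutants, against 349 and 518 in siblings. All 4 overlapped between groups, and mafbb was at 0 in every library.

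**Figure D4:**
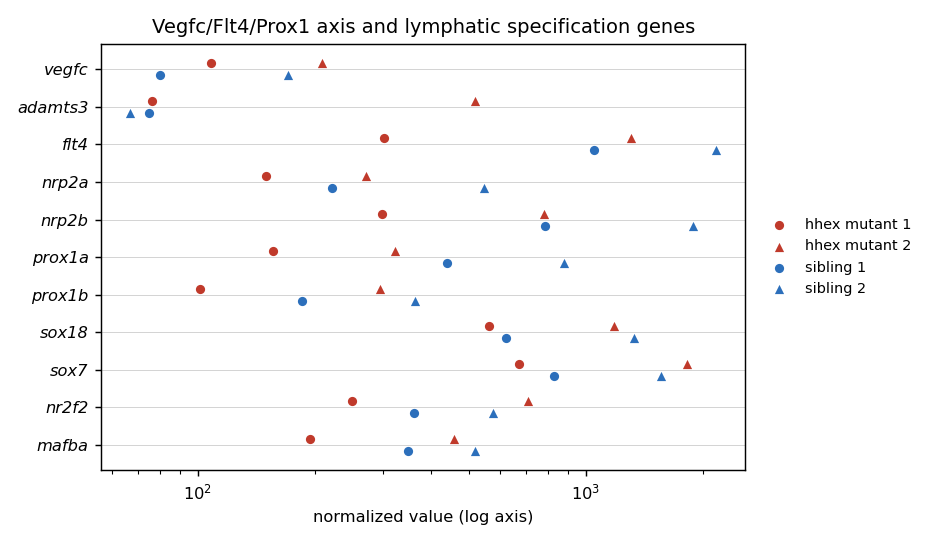
Normalized value (horizontal log axis) of the 11 tested genes of the Vegfc/Flt4/Prox1 axis and of lymphatic specification in each library, with red for hhex mutants, blue for siblings, circles for library 1 and triangles for library 2. For prox1a both red symbols lie left of both blue ones (156 and 322 against 439 and 880), as for nrp2b by a narrow margin (781 against 783). For adamts3 both red symbols lie right of both blue ones, mutant 1 by 1 unit (76 against 75), and the other 8 genes overlap between the groups.

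Among the remaining venous markers, lyve1b had 115 and 364 in mutants, against 190 and 483 in siblings, and the endocytic adaptor gene dab2 had 543 and 1495 in mutants, against 846 and 1891 in siblings. Without mutant 1 their log2 changes turned to 0.26 and 0.24, in place of -0.56 and -0.49. lyve1b and dab2 were the 2 of 8 venous markers (25.0%) that were lower in both numbers, against 23.1% of all genes. The other 6 had opposite directions. Of 11 arterial markers 3 (27.3%) were higher in both, against 25.2% of all genes, and 0 were lower in both. The 3 were notch3, hey2 and the chemokine receptor gene cxcr4a, which had 352 and 993 in mutants, against 331 and 282 in siblings. Without mutant 2 the log2 change of cxcr4a was 0.20 in place of 0.95, and that of hey2 was -0.03 in place of 0.47. The arterial list had a median change of 0.04, which was 0.71 without mutant 1 and -0.25 without mutant 2. Of the 8 tip cell genes tested 2 (25.0%) were lower in both, against 23.1% of all genes. They were pfkfb3, a regulator of glycolysis, with 164 and 192 in mutants and 380 and 262 in siblings, and igfbp3, with 62 and 238 in mutants and 135 and 284 in siblings. Without mutant 1 the log2 change of igfbp3 was 0.28 in place of -0.68. Of 6 endocardial markers 3 were lower in both and 0 higher in both, klf2b, has2 and nfatc1. The flow-responsive factor gene klf2b had 1696 and 2199 in mutants and 2622 and 3241 in siblings.

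Of the 13 other called genes that were lower, prox1a and nrp2b are given above. s1pr4 (chromosome 22, 4936040 to 4939107), a sphingosine 1-phosphate receptor of blood cells in mammals, had 12 and 14 in mutants, against 141 and 90 in siblings. Its change was -3.03 (standard error 0.58, adjusted p = 0.0276 from limma with the block), and the overexpression libraries had 10 and 38. The mitochondrial ADP/ATP carrier gene slc25a4 had 48 and 52 in mutants, against 239 and 168 in siblings. Its overexpression values were 29 and 111, below both siblings as for the muscle gene myhz1.1. Whether muscle RNA has a part in these lower genes was not tested.

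The following were named after their values were seen. The protocadherin gene pcdh18a had 70 and 56 in mutants, against 214 and 198 in siblings, and the cadherin gene cdh6 had 78 and 177 in mutants, against 280 and 502 in siblings. The elastin cross-linking enzyme gene loxl1 had 25 and 134 in mutants, against 135 and 367 in siblings, and its change of -1.92 was -0.73 without mutant 1 and -1.20 without sibling 2. Without mutant 1 the change of cdh6 was -1.08 in place of -1.66. rgs5b, a regulator of G protein signalling, had 111 and 112 in mutants, against 242 and 458 in siblings, and the glycosyltransferase gene b3gnt5a had 91 and 106 in mutants, against 233 and 333 in siblings. In these genes, as in every gene called lower, both mutants lay below both siblings, so this sets none of them apart. Of all genes, 11.2% had both mutants below both siblings. The remaining called genes were pir (83 and 62 in mutants, 298 and 194 in siblings) and genes with clone names. These were si:ch211-266g18.10 (85 and 30 in mutants, 269 and 135 in siblings) and si:ch73-367p23.2 (180 and 183 in mutants, 851 and 429 in siblings). The last was si:dkeyp-1h4.9 (738 and 727 in mutants, 1490 and 1574 in siblings). Below the call, the cofactor genes eya1 (38 and 75 in mutants, 107 and 209 in siblings) and eya2 (64 and 136 in mutants, 193 and 278 in siblings) were each lower by at least 1 on the log2 scale in both numbers.

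Blood genes were part of what the sort held. Of 12 myeloid markers tested, 8 were higher in both replicate numbers, 1 was lower in both and 0 were called, a share of 66.7% against 25.2% of all genes, with a median change of 0.61. That median was 0.20 without mutant 2 and 0.38 without sibling 1, and at least 0.95 without mutant 1 or sibling 2. The neutrophil lysozyme gene lyz had 2437 and 5421 in mutants, against 1496 and 1951 in siblings, and the neutrophil granule gene npsn had 649 and 2070 in mutants, against 424 and 822 in siblings. The mast cell carboxypeptidase gene cpa5 had 146 and 722 in mutants, against 75 and 194 in siblings, and spi1b, the transcription factor PU.1, had 356 and 291 in mutants, against 159 and 210 in siblings. The sum of all 18 markers was 13002 and 17473 in mutants, against 10039 and 11114 in siblings, but it was 1443 and 13897 in the overexpression libraries, a wider gap within that group. The macrophage genes mpeg1.1 and marco were at 9 or less in mutants and 15 or less in siblings.

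Of 12 genes of blood stem cells and hemogenic endothelium 5 were higher in both and 0 lower in both. Besides gfi1aa they included myb, a regulator of blood progenitors, with 3918 and 1362 in mutants, against 1836 and 1270 in siblings, the transcription factor gene lmo2, with 515 and 514 in mutants, against 403 and 423 in siblings, and cbfb, with 2116 and 1323 in mutants, against 1705 and 1142 in siblings. The list median was 0.17 and turned to -0.10 without mutant 1. Without mutant 1 the log2 changes of myb and cbfb were -0.16 and -0.08, in place of 0.60 and 0.26. Of 16 erythroid markers tested, 8 were higher in both and 1 lower in both, with a median change of 0.19, which was -0.089 without mutant 1 and -0.14 without sibling 2. Over all genes, 25.2% were higher in both and 23.1% lower in both. The anion exchanger gene slc4a1a had 474 and 252 in mutants, against 259 and 221 in siblings, and the embryonic globin gene hbbe3 had 165 and 149 in mutants, against 119 and 95 in siblings. In the other direction, cahz of the erythroid list had a log2 change of -0.49, between -0.95 and -0.03 with any 1 library left out.

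Genes of cytosolic ribosomal proteins differed by little but nearly all in the same direction. Of 80 tested, 79 were higher in both replicate numbers (98.8%, against 25.2% of all genes) and 59 had both mutants above both siblings, against 13.6% of all genes. rps29 had 2612 and 2505 in mutants, against 1911 and 1757 in siblings, and rps26 had 1008 and 938 in mutants, against 720 and 716 in siblings. The median change was 0.30 on the log2 scale, 0.39 and 0.20 in replicates 1 and 2, and 0 were called. It was 0.19 with quantile scaling, 0.37 after rescaling to the endothelial markers, and between 0.15 and 0.44 with any 1 library left out. The sum over 81 genes was 628606 and 514546 in mutants, against 481529 and 451174 in siblings, and 349809 and 372049 in overexpression libraries. The exception was 1 of 2 genes named rpl37, with 44 and 53 in mutants, against 107 and 42 in siblings. The 13 genes of the mitochondrial genome had a median change of -0.08, which was 0.08 without sibling 1, with 3 higher and 2 lower in both.

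**Figure D5:**
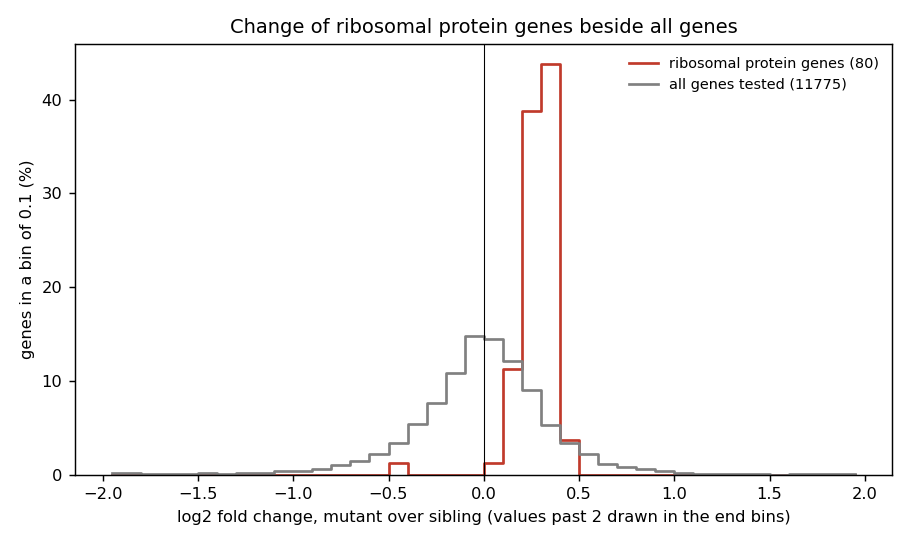
Share of genes (vertical axis, percent) by log2 change of mutants over siblings (horizontal axis, bins of 0.1), for the 80 ribosomal protein genes in red and all 11775 genes in grey. The red distribution lies right of 0 around its median of 0.30, apart from 1 gene, while the grey one is centred at 0.003.

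Of 25 cell cycle genes 14 were higher in both replicate numbers and 2 lower in both, 12 had both mutants above both siblings (48.0%, against 13.6% of all genes), and 0 were called. ccnb1, the mitotic cyclin B1, had 311 and 400 in mutants, against 227 and 232 in siblings, and the mitotic kinase gene aurkb had 297 and 287 in mutants, against 210 and 193 in siblings. The replication licensing gene cdc6 had 168 and 122 in mutants, against 216 and 172 in siblings. The list median was 0.09, and between 0.11 and 0.16 with any 1 library left out. In the Bmp list of 17 genes tested, the receptor gene bmpr1aa had 445 and 943 in mutants, against 288 and 392 in siblings, and the target gene id1 had 288 and 476 in mutants, against 465 and 718 in siblings, with 3 genes higher and 1 lower in both. Of 24 immediate-early and heat-shock genes, 4 were higher and 6 lower in both, among them atf3 with 683 and 840 in mutants, against 926 and 1437 in siblings. Of 7 p53 targets tested, 0 were higher and 1 was lower in both, which was baxa with 401 and 377 in mutants, against 406 and 398 in siblings. Over all genes, 25.2% were higher in both and 23.1% lower in both.

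Mutants carry the allele's chromosome region on both copies, so the neighbours of hhex were counted apart. Of 35 other genes tested within 5 Mb of hhex, 9 were higher and 9 lower in both replicate numbers, 25.7% each against 25.2% and 23.1% of all genes, and 0 were called. The largest of these was fmn2b, a formin gene, with 52 and 31 in mutants, against 126 and 63 in siblings. Over the other 353 tested genes of chromosome 12, 84 were higher and 79 lower in both, 23.8% and 22.4%. Of these 353, 1 was called higher, gch2, and 4 were called lower, the muscle genes mylpfb, pvalb2, myoz1b and atp2a1l. Over all genes 0.17% were called higher and 0.433% lower.

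The overexpression libraries share the same siblings as their comparison and were sorted with another gate, so their values are only set beside those of the mutants. flt4 had 2815 and 3152 and nrp2b 2946 and 3225 in overexpression, above both siblings and both mutants. prox1a had 541 and 747, within the range of the siblings. pcdh18a had 269 and 263 and cdh6 647 and 605, also above both siblings. The muscle gene myhz1.1 had 5327 and 13450, below both siblings as in the mutants. Of genes higher in mutants, notch2 had 459 and 523 and dnase1l4.1 66 and 70 in overexpression, below both siblings. ptpn13, with 152 and 152, was also below both siblings (169 and 173), and neo1a with 206 and 327 and fgfr1a with 85 and 153 spanned the siblings' values.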

How the data were processed

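Reads of 75-base single-end libraries, made from 6 ng of total RNA with a stranded low-input kit, were processed by the authors with Reaper, STAR (2.4.0a, GRCz10) and featureCounts (1.4.5-p1), and normalized with DESeq2. The strand setting of the counting is not given in the sources used here. Deposited is a normalized signal for every gene, obtained by the authors as read numbers over a library size factor, rounded, so count models were not used.

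Columns were assigned to libraries by name. Of 31701 gene identifiers 26237 matched a name table, which gave 892 placeholder symbols a name, hhex among them. log2(value + 1) of the 4 libraries was fitted with limma (3.58.1, R 4.3.3) with a mean trend and robust estimation, over 11775 genes, unpaired and with the replicate number as a block. An exact permutation test of 2 against 2 cannot go below 0.333. P-values measure only the spread between these samples, for which nothing states separate clutches. They also draw on a spread pooled over genes. The median total degrees of freedom were 13.3 with the block and 5.4 unpaired, more than 4 libraries give a single gene. The p-values with the block therefore rest mostly on that pooled spread. Between 21327212 and 23615228 reads per library were estimated from the steps between low values, and counting error adds to the spread. Both fits were also run on simulated data with a standard deviation of 0.1, 0.2 or 0.3, in which 200 genes were shifted. Of these 200, between 54 and 200 were recovered unpaired and between 53 and 200 with the block. The lowest numbers came with a standard deviation of 0.3 and a log2 shift of 1. False calls among unshifted genes numbered between 1 and 13 unpaired and between 1 and 15 with the block. A standard deviation above 0.3 was not tested, and the simulated spread was not matched to that of these libraries. The simulated noise was independent between libraries, with no deviation shared by libraries of the same number. The simulation therefore cannot check the block calls made on these data.

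The members, lists and the rule for named genes were chosen with earlier results of these data known. That rule picked hhex, the genes of both lymphatic lists and the 10 called genes with the largest change in each direction. It also picked the 12 genes with the largest smaller ratio in each direction (clone names left out). Up to 4 genes per list and the 5 genes with the largest gap between replicate numbers in each order were added. Some genes picked for a list are not described here. Alternatives were the block, pseudocounts of 0.1 and 5, a mean of at least 5, no filter, all 6 libraries, quantile scaling, rescaling to the endothelial markers, an adjusted p of 0.1 and each library left out. A single prior, and other choices together with the block, were added after seeing the data. Of the list genes, 7 were not matched and are not analysed here.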

Additional observations from a re-analysis of the deposited data

How the results depend on the processing

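The unpaired count of 0 called genes (212 at an unadjusted p under 0.05) stayed 0 under both pseudocounts, a mean of at least 5, no filter, all 6 libraries, quantile scaling, the endothelial rescaling, an adjusted p of 0.1 and a single prior. It was 0 to 1 with any 1 library left out, the 1 without mutant 1. With the replicate block it was 71, and the fits that combine the block with another choice, added after seeing the data, gave 66 and 72 with pseudocounts of 5 and 0.1 and 79 with quantile scaling, but 203 with a mean of at least 5, 5 after rescaling, 1 with a single prior and 0 with all 6 libraries. The deviations of same-numbered libraries correlated at 0.50, but with 2 pairs and no label for what a number shares, the pairing remains only a number, and a call lost without it is not a weaker effect. Leaving out a library with the block leaves 1 pair and no test. Genes with the same direction in both numbers were 5691 in all, 10001 with a mean of at least 5 (20764 genes tested) and 3564 after rescaling, and those at least 1 apart were 123 and, with a mean of at least 5, 928. Genes whose groups do not overlap were 2919, 5577 with a mean of at least 5 and 777 after rescaling. Of 40 single genes, 34 kept their direction throughout. Many of the 40 were picked for their calls or ratios. Where the groups do not overlap, leaving out 1 library cannot turn the direction, so this count adds no support. With 1 library left out, vegfc was between -0.19 and 0.90, prox1b between -1.35 and 0.19, sox18 between -0.71 and 0.39, sox7 between -0.76 and 0.68, nr2f2 between -0.87 and 0.63 and mafba between -1.12 and 0.11, and sox7 was 0.032 after rescaling, with or without the block. The cause was not tested. With 2 libraries per group, of which the mutants stand apart, single libraries set many of these values.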

Other observations

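Some genes differed widely between the replicate numbers. The 5 genes with the largest gap in the order of replicate 2 were led by the matricellular gene postna, which had 5 and 278 in mutants, against 35 and 8 in siblings. The vessel-destabilising ligand gene angpt2a had 28 and 577 in mutants, against 54 and 74 in siblings, and the glucose transporter gene slc2a1a had 20 and 202 in mutants, against 41 and 33 in siblings. Their high values were in mutant 2, the library with the highest endothelial sum. The cadherin gene cdh17 had 37 and 363 in mutants and 112 and 59 in siblings, and atp1a1a.4, a sodium pump subunit, had 88 and 503 in mutants and 198 and 70 in siblings. In the overexpression libraries cdh17 was at 5 and 862 and atp1a1a.4 at 41 and 745.

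In the opposite order the slow myosin gene smyhc1 had 716 and 18 in mutants, against 45 and 26 in siblings. The unconventional myosin gene myo3a had 846 and 84 in mutants, against 711 and 723 in siblings, and the hair cell channel gene tmc1 had 552 and 29 in mutants, against 324 and 230 in siblings. The cytokine receptor gene il12rb2 had 87 and 4 in mutants and 81 and 73 in siblings, and nlrc9 had 94 and 29 in mutants and 28 and 82 in siblings. For each of these 10 genes a single library or pair sets the difference, and none was called.

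A pair of unnamed genes was chosen after their values were seen. si:dkey-110c1.10 rested on sibling 1, with 9 and 15 in mutants and 1363 and 32 in siblings. si:dkey-9l20.3 had 179 and 38 in mutants, against 792 and 1139 in siblings, with 560 and 743 in overexpression, and was not called.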
